A study of Mus musculus with 12 samples.

Results

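The microRNAs (miRNAs) of the imprinted Dlk1-Dio3 cluster on mouse chromosome 12 were followed in adult liver over 12 times of collection. Members were the array entries named mmu-miR- with any of 42 cluster numbers, from miR-127 to miR-770, whatever their letter, arm or star. This gave 65 of the 650 entries on the array, which holds 611 mouse and 39 herpesvirus entries, and all 42 numbers had at least 1 entry. The mice were adults that were fed freely under a cycle of 12 h light and 12 h dark. Times are in zeitgeber hours (ZT), where ZT0 is lights on. Collections ran from ZT18 to ZT62 at intervals of 4 h, and each array received RNA pooled from 2 whole livers. The light group held 6 arrays (ZT26, ZT30, ZT34, ZT50, ZT54 and ZT58) and the dark group 6 (ZT18, ZT22, ZT38, ZT42, ZT46 and ZT62). Both groups carried no other treatment, and strain, sex and exact age are not given in the sources used here. Every clock time was collected 2 times, 24 h apart, and these collections served as its replicates. The earlier collections (ZT18 to ZT38) are called cycle 1 here and the later ones (ZT42 to ZT62) cycle 2.

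The cluster lies between the genes Dlk1 and Dio3, and its miRNAs are cut from long noncoding transcripts (Meg3, Rian and Mirg) that are made from the maternally inherited chromosome. It is known for high activity in the embryo, the placenta and the brain. Several of its miRNAs lie opposite Rtl1, a retrotransposon-derived gene that is active on the paternal chromosome and whose transcript they match fully. In liver, miR-370 and miR-379 have been studied for their part in lipid metabolism. As the RNA came from whole tissue, fewer cells of a type and less RNA per cell cannot be told apart.

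Mature sequences were matched in RefSeq (GRCm38.p6) for 62 of the 65 members and hairpins for 64. The 64 matched members came from 43 hairpins, all on the plus strand of chromosome 12, and 21 hairpins had an entry for each arm. The hairpins spanned 180.1 kb. By position the 65 members formed a segment of 20 from Meg3 to Rian and a segment of 45 on the Mirg side, which takes in miR-544 without a matched hairpin, with 90.7 kb between Mir370 and Mir379. The sequences shown here are those of miR-494 and miR-341, on which the detection results turn, and of well-studied members that were not called on any array (miR-127, miR-370, miR-379 and miR-410) for comparison. The pair miR-376b* and miR-376c* is included because it was the only group of members with a common seed. Capitals mark the seed, bases 2 to 8 from the 5′ end, through which a miRNA pairs with its targets.
miR-494 (3p, chr12:109715367-109715388): uGAAACAUacacgggaaaccuc
miR-341 (3p, chr12:109611556-109611576): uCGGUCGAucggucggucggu
miR-127 (3p, chr12:109592888-109592909): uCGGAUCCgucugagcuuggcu
miR-370 (3p, chr12:109618305-109618326): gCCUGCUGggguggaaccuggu
miR-379 (5p, chr12:109709065-109709085): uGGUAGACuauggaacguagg
miR-410 (3p, chr12:109743764-109743784): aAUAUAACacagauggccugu
miR-376b* (5p, chr12:109723471-109723492): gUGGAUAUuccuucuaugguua
miR-376c* (5p, chr12:109722733-109722754): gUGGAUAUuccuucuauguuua
The seed of miR-494, GAAACAU, was held by 1 mature miRNA of the RefSeq table, miR-494 itself, so no other mouse miRNA listed there shares it. The matched members had a median of 47.5% G and C, from 23.8% to 72.7%.

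The cluster gave little signal in adult liver, apart from miR-494. The scanner software called 12 of the 65 members detected on at least 1 array, which is 18.5%, beside 35.0% of all mouse entries, 23.1% of the herpesvirus entries and 34.3% of all entries. On at least 6 arrays 2 members were called (3.08%), beside 22.1% of mouse, 10.3% of herpesvirus and 21.4% of all entries. Only miR-494 was called on all 12 arrays (1.54% of members), beside 17.8% of mouse, 7.69% of herpesvirus and 17.2% of all entries. The other members with a call were miR-487b on 8 arrays, miR-341 on 2, and miR-134, miR-300*, miR-376c, miR-433*, miR-493, miR-540-3p, miR-540-5p, miR-668 and miR-679 on 1 each. Between 2 and 4 members were called on any array, of 132 to 162 entries called in all. With miR-494 and miR-487b set aside, 1.46% of the 756 remaining pairs of member and array carried a call. The herpesvirus entries called on fewer than 6 arrays, 35 in number, gave 1.43% by the same count. Both counts leave out the entries called on at least 6 arrays, so both shares are low by selection. Of the 546 other mouse entries 344 were called on 0 arrays as well, beside 53 of the 65 members. These shares are descriptions of this array design and were not tested, since the entries of a cluster are not replicates.

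**Figure D1:**
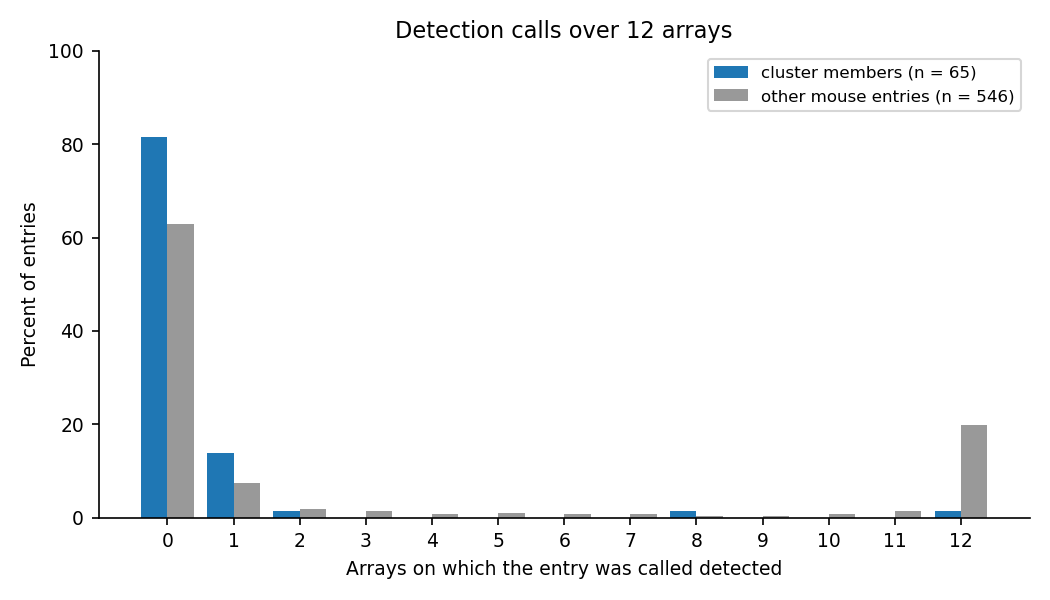
Percent of entries (vertical axis) by the number of arrays, 0 to 12, on which the scanner software called them detected, for the 65 cluster members (blue) and the 546 other mouse entries (grey). Members pile up at 0 arrays (53 of 65) with 1 member at 12, while 108 of the 546 other entries lie at 12.

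The tissue label was borne out by the markers of its main cell type. Of 8 entries for miRNAs of hepatocytes, among them miR-122, the liver's most characteristic miRNA, 7 were called on all 12 arrays, and miR-148a*, a minor arm, on 0. Both entries for the endothelial miR-126 were called on all arrays, as were 3 of 6 leukocyte, 2 of 3 red cell and 4 of 8 mesenchymal entries. Of 8 striated muscle and 4 pancreatic entries 0 were called, and of 8 neuronal entries 1 was called, on at least 6 arrays. Markers of non-parenchymal cells were thus measured in pools where 64 of the 65 cluster members were not called on all arrays. A part of these cells in the cluster's signal was not tested.

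By position, members with a call lay in both segments. In the Meg3 to Rian segment 5 of 20 members had at least 1 call (25%) and 0 had 6 or more. The shares of all mouse entries were 35.0% and 22.1%. Within Meg3, by the RefSeq annotation, lie miR-770-5p and miR-770-3p, which were called on 0 arrays. Of the 16 members that lie within Rtl1, 4 were called, each on 1 array: miR-493, miR-540-5p, miR-540-3p and miR-433*. The other 12 were called on 0 arrays, namely both arms of miR-337, miR-431, miR-127, miR-434 and miR-136, with miR-665 and miR-433. Within Rian, miR-341 was called on 2 arrays and miR-370 on 0. On the Mirg side 7 of 45 members had a call (15.6%, beside the same 35.0%).

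All 7 of those called members lie upstream of Mirg in the stretch that begins with miR-379. From that stretch the uncalled members were miR-379, both arms of miR-411, miR-299, miR-380, miR-323, miR-382 and miR-485, and miR-758, miR-329, miR-543, miR-495, miR-667, miR-376c*, miR-376b and its star, miR-376a and its star, miR-300, miR-381 and miR-539, with miR-544 as well. Within Mirg 0 of 11 members were called, beside 18.5% of all members and 35.0% of mouse entries. These were both arms of miR-154, miR-409 and miR-369, with miR-496, miR-377, miR-541, miR-412 and miR-410. Differences by position were not tested. Entries of the same cluster outside the number list were looked at as well: 0 of 9, for miR-654, miR-666, miR-673, miR-1188, miR-1193 and miR-1197, were called on any array. A search of RefSeq for further entries in the region, made after the values were seen, added miR-453 and miR-882, called on 0 arrays, and miR-1906, called on 5. miR-1906 lies just outside the members' hairpins and has a copy on another chromosome, so the signals of both copies cannot be told apart. A placenta-rich cluster elsewhere in the genome, within Sfmbt2, had 5 of 39 entries called at least on 1 array (12.8%). On 6 or more arrays 1 of them was called (2.56%), beside 22.1% of mouse entries.

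At the level of single spots the members other than miR-494 lay close to the negative control spots. Each array carried 180 member probes on 1300 spots, and 38 members had 2 probes, 26 had 3 or 4 and 1 had 1. After spots marked as outliers by the software were removed, 0% to 2.24% of these members' spots were well above background on an array (median 0.623%), or 113 of 14534 over all arrays (0.777%). Negative control spots gave 0% to 0.501%, or 3 of 4860 (0.0617%), herpesvirus spots 5.7% to 9.19% and spots of other mouse entries 16.4% to 20.2%. The members' share was above that of the negative controls on 10 of 12 arrays. In contrast, their median signal, between -2.06 and -0.195 intensity units, was below that of the negative controls, between 0.714 and 2.67, on all 12.

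The small excess over negative controls depended on how outlier spots were treated. With those spots kept, members had 0.469% to 5.47% of spots above background (median 2.7%) and negative controls 0.461% to 5.3% (median 3.23%). Members were then higher on 5 arrays and negative controls on 7. With outlier spots left out, the shares differed in range between slides, for members and controls, which was not tested. The 8 arrays of slide 1 (ZT18 to ZT46) gave members 0% to 0.992% and negative controls 0%. The 4 arrays of slide 2 (ZT50 to ZT62) gave members 0.671% to 2.24% and negative controls 0% to 0.501%. As slide 2 holds only late times, slide and time of collection cannot be told apart there.

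**Figure D2:**
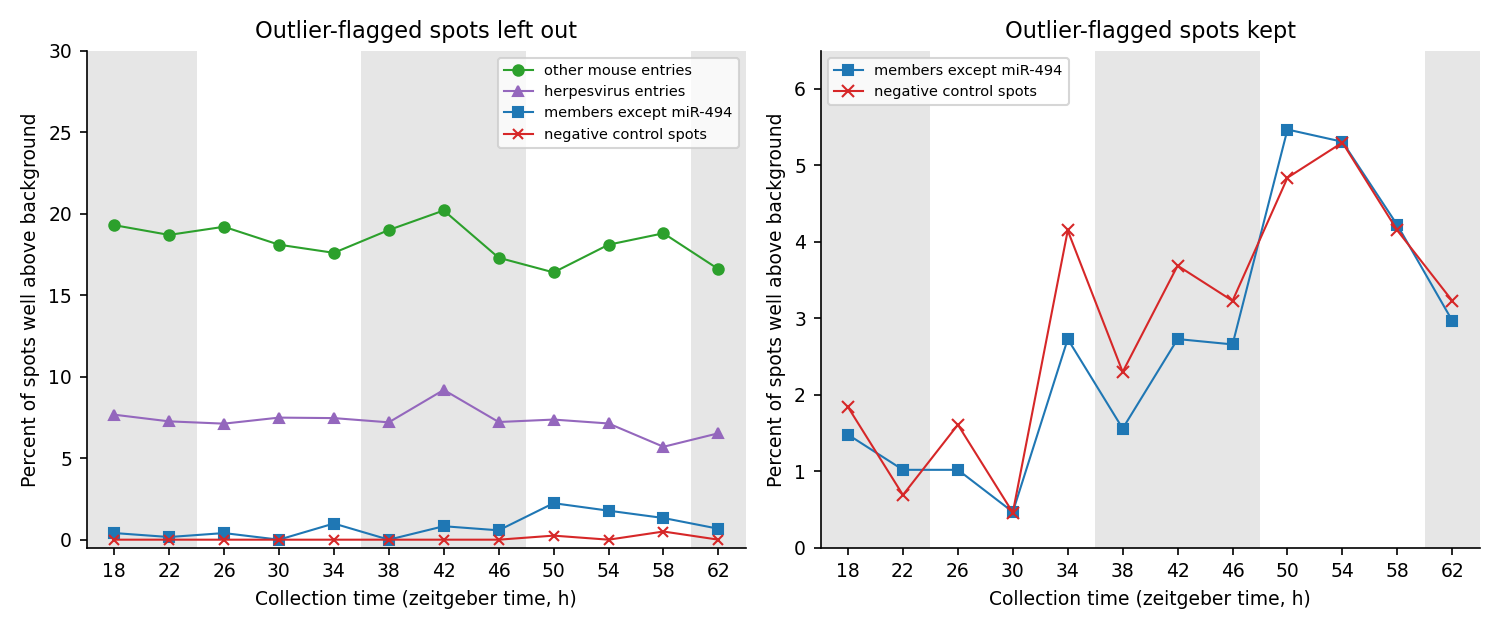
Percent of spots well above background on each array by collection time (zeitgeber time in h; grey bands are dark), with outlier spots left out (left) and kept (right; members and negative controls only). Members except miR-494 stay at or below 2.24% in the left plot and interleave with the negative controls in the right one.

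Single members differed little from each other in this measure. Of the 64 members other than miR-494, 22 had no spot above background on any array, 18 had 1 such spot over the 12 arrays, 24 had more, and 9 had over 3. The share per member ran from 0% to 6.64% with a median of 0.44%, beside medians of 0.881% for other mouse entries and 0.45% for herpesvirus entries. The highest was miR-487b, with 15 of 226 spots, followed by miR-341 with 9 of 227 (3.96%). Among uncalled members miR-369-5p had 6 of 228 spots (2.63%), miR-376a* 6 of 233 (2.58%) and miR-127 4 of 228 (1.75%). The 13 starred entries, the minor arms, included 2 with a call, beside 12 of all 65 members (18.5%) and 35.0% of mouse entries. Both arms of miR-540 were called, on different arrays.

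**Figure D3:**
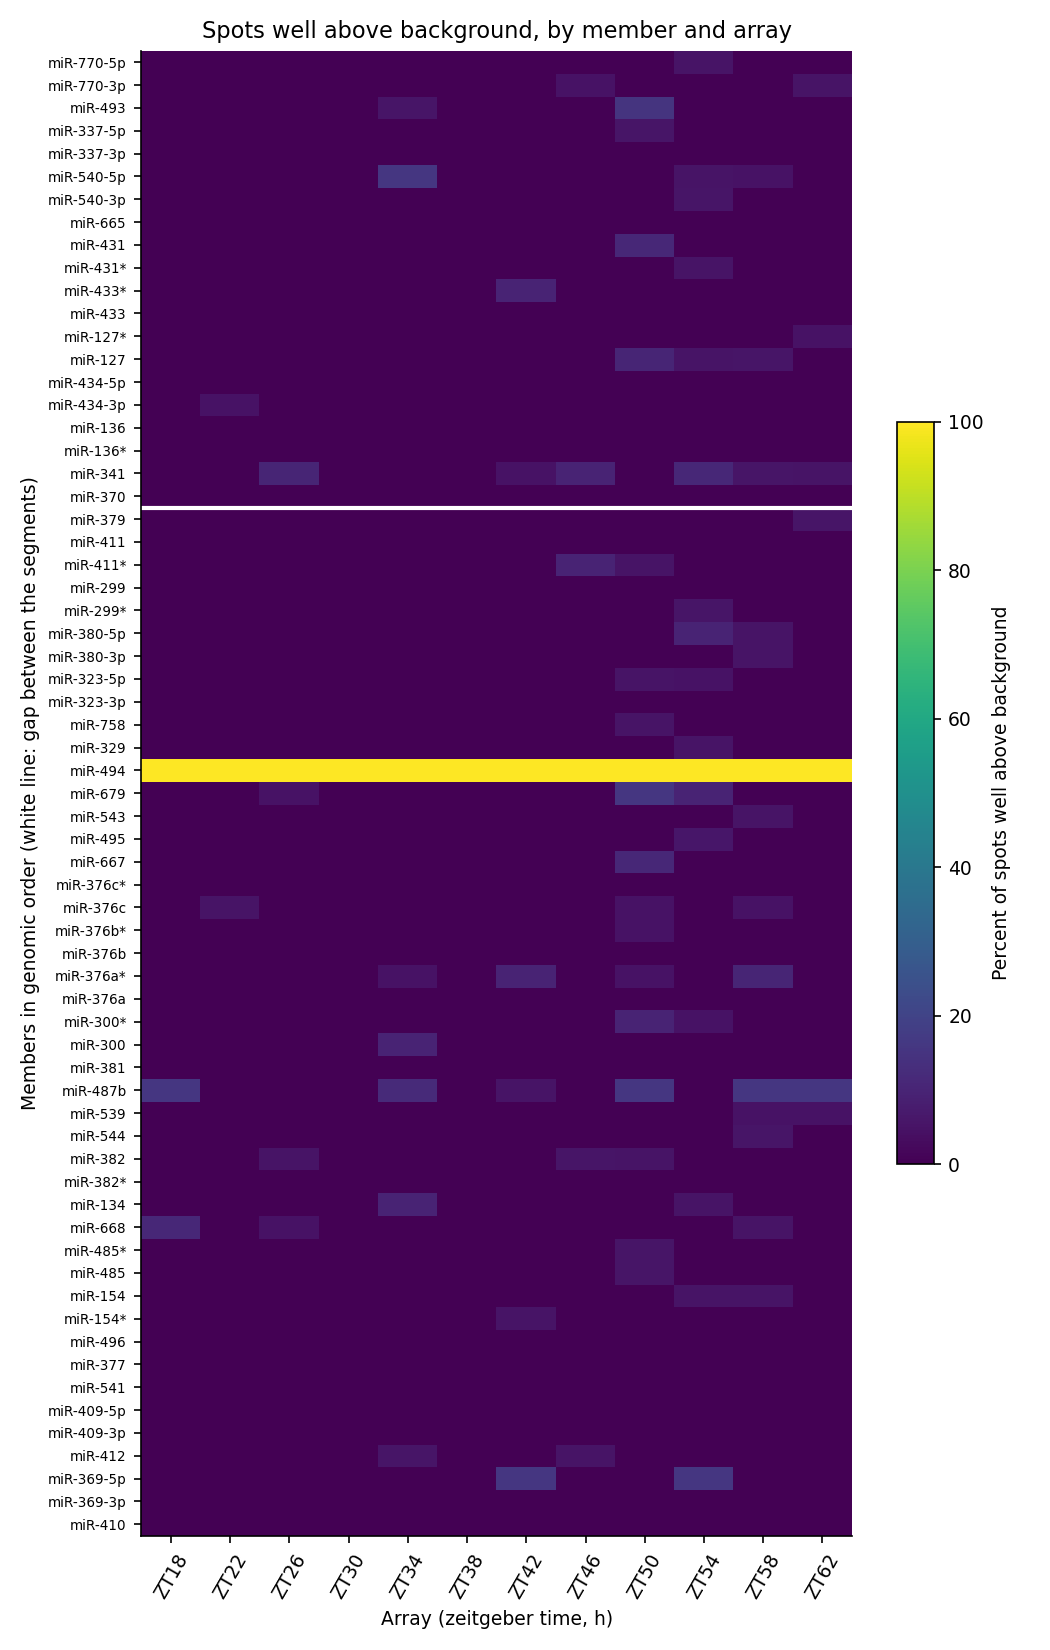
Percent of each member's spots well above background (colour, 0 to 100%) for the 65 members in genomic order (rows) on the 12 arrays (columns). The row of miR-494 is at 100% on every array, and the highest share of any other member on an array is 15.8%.

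Base composition differed between called and uncalled members, and so did the number of probes. The 10 called members with a matched sequence had a median of 56.5% G and C and the 52 uncalled ones 45.5%. However, all 9 members called on 1 array had 4 probes each, while miR-494, miR-487b and miR-341 had 2. Of all members 25 had 4 probes and 38 had 2. With 4 probes, called members ran from 36.4% (miR-300*) to 66.7% (miR-668). Uncalled ones ran from 31.8% (miR-376c*) to 72.7% (miR-770-3p and miR-323-5p). Across the 61 matched members other than miR-494, Spearman's rho between this content and the share of spots above background was 0.341. The members share arrays and the probe chemistry, so this is a description across miRNAs with no test. A part of base composition or of probe number in the weak calls was not tested. miR-494 itself, at 45.5%, lay below the median of the called members.

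miR-494 was the member with a signal on every array. All of its spots that were not marked as outliers, 221 over the 12 arrays, were well above background. By the software's total signal per entry it ran from 185.3 to 249.6. The 3 herpesvirus entries called on all 12 arrays gave a signal by that measure too. mcmv-miR-M23-1-5p ran from 101.4 to 151.1, mcmv-miR-m88-1 from 89.7 to 126.9 and mghv-miR-M1-2 from 9.12 to 42.1. Whether the signal is specific to miR-494 was not tested. The mean signal of its brighter probe, in intensity units before scaling, was 265.1 at ZT18, 232.6 at ZT22, 241.0 at ZT26, 214.0 at ZT30, 237.7 at ZT34, 228.6 at ZT38, 243.6 at ZT42, 218.6 at ZT46, 230.1 at ZT50, 245.8 at ZT54, 221.8 at ZT58 and 186.9 at ZT62. ZT18 was the highest array and ZT62 the lowest, and the highest was 1.42 times the lowest. The spread between spots on an array, as a coefficient of variation, was 1.25% to 24.5% with a median of 12.6%.

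Scaling the arrays to each other kept both extremes. Each array was divided by the 75th percentile of the probes detected on all arrays, relative to the other arrays, with factors between 0.91 and 1.16. The scaled signal was 283.8 at ZT18, 213.3 at ZT22, 249.5 at ZT26, 215.1 at ZT30, 244.9 at ZT34, 197.8 at ZT38, 229.3 at ZT42, 240.3 at ZT46, 242.2 at ZT50, 241.7 at ZT54, 227.1 at ZT58 and 187.3 at ZT62. The highest array was 1.51 times the lowest. The standard deviation over the 12 arrays was 0.16 on the log2 scale, beside a median of 0.10 over the 139 entries tested and of 0.08 over the 24 of similar level.

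The other probe of miR-494, which is directed at the same mature miRNA, shared its extremes but not its whole course. Its scaled signal ran from 92.6 at ZT62 to 126.3 at ZT18, the same lowest and highest arrays. In between, ZT38 ranked 2 from the lowest by the brighter probe and 4 by the other, and ZT46 ranked 7 and 3. Over the 12 arrays the log2 scaled signals of both probes correlated with Pearson's r = 0.836 (permutation p = 8.90e-04) and Spearman's rho = 0.888 (permutation p = 2.30e-04), with 100000 permutations, two-sided. Both coefficients measure the same relation, the only one tested across arrays, and their p-values were not adjusted. Without ZT62 and ZT18, the arrays farthest from the median, r was 0.626, and without scaling it was 0.746. On the 8 arrays of slide 1 r was 0.818, and slide 2 has too few arrays for a value. Both probes share the array and its scaling factor.

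**Figure D4:**
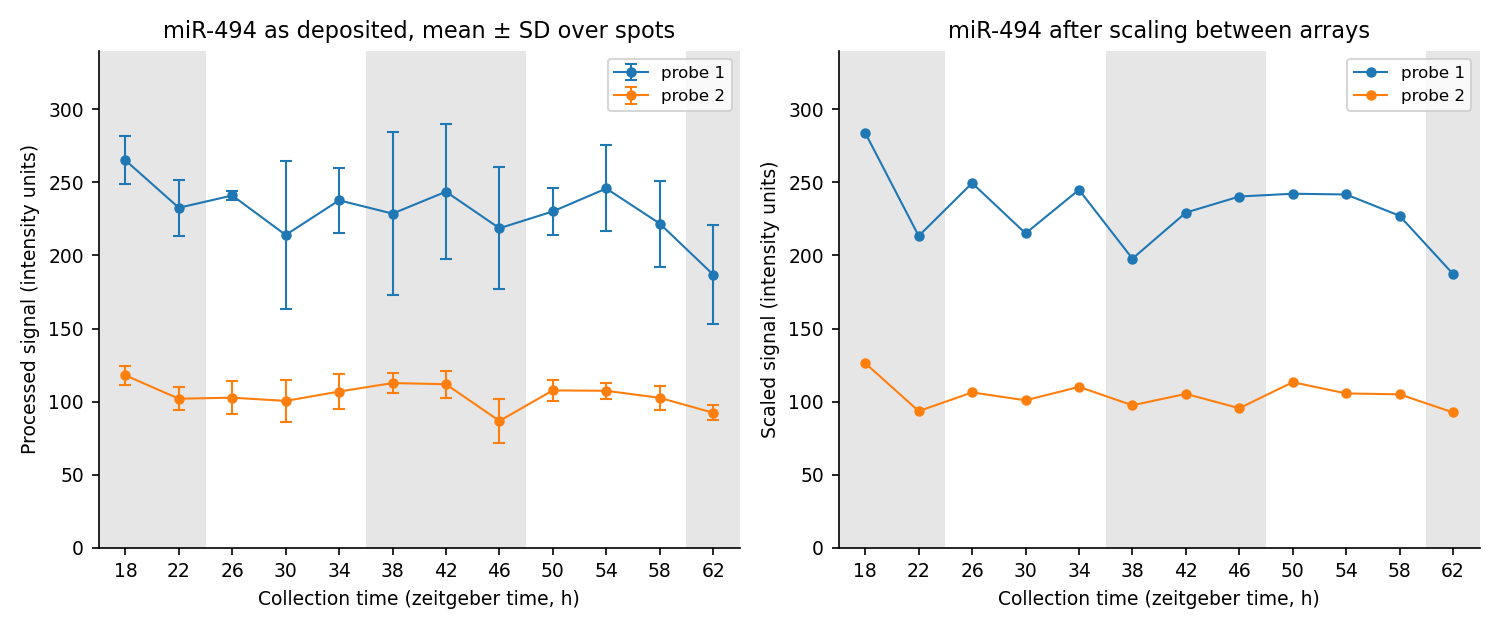
Signal of both miR-494 probes on each array by collection time (zeitgeber time in h; grey bands are dark), as deposited with the standard deviation over spots (left) and after scaling between arrays (right), in intensity units from 0. Both probes are highest at ZT18 and lowest at ZT62 after scaling, and light and dark arrays overlap.

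No rhythm of miR-494 with a period of 24 h passed the test. The fitted curve had a peak over trough ratio of 1.13 (upper 95% bound 1.45) with its maximum at 0.647 h after lights on, and the adjusted p was 0.957 (limma F test, Benjamini-Hochberg over 139 entries). Of the 139 entries 0 passed (0%), with the smallest adjusted p at 0.849, and 5 (3.6%) had an unadjusted p under 0.05 in limma. Tests over the 6 clock times without a curve shape gave 0 calls in limma, with 6 entries (4.32%) under 0.05 unadjusted, and miR-494 had an adjusted p of 0.805. Its unadjusted p there was 0.0883, with a ratio of 1.33 between the highest and lowest clock time.

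By clock time, the brighter probe of miR-494 was lowest 14 h after lights on, in the early dark, at 7.59 ± 0.06 log2 scaled units (SD, n = 2), from scaled signals of 197.8 and 187.3. These were the lowest arrays of their cycle, and of all 12, after scaling. Before scaling ZT38 ranked 5 counted from the lowest of 12 arrays, so the place of that array rests on the scaling. The means at the other clock times were 7.94 ± 0.03 at 2 h, 7.83 ± 0.12 at 6 h, 7.88 ± 0.08 at 10 h, 7.99 ± 0.22 at 18 h and 7.82 ± 0.12 at 22 h (SD, n = 2 each). Among neighbouring clock times other than 14 h, the replicates overlapped except around 2 h. Both arrays at 2 h (242.2 and 249.5 scaled units) were above those at 6 h (up to 241.7) and 22 h (up to 240.3). The other probe did not single out 14 h: it was at 6.57 ± 0.05 there and at 6.56 ± 0.02 at 22 h (SD, n = 2 each), so the clock time of the minimum depended on the probe.

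The light and dark arrays of miR-494 overlapped. Light arrays ran from 215.1 to 249.5 scaled units (median 241.9) and averaged 7.89 ± 0.08 on the log2 scale (SD, n = 6). Dark arrays ran from 187.3 to 283.8 (median 221.3) and averaged 7.80 ± 0.22 (SD, n = 6), with 4 of 6 below the light mean. Dark minus light was -0.08 log2 units, a fold of 0.944 with a 95% interval of 0.822 to 1.08, and did not pass the test (limma, Benjamini-Hochberg adjusted p = 0.751). This fit took the 6 arrays of a group as independent, although each of its clock times was collected 2 times. Of the 139 entries 0 were called (0%), and 11 (7.91%) had an unadjusted p under 0.05 in limma, with a smallest adjusted p of 0.355. The median difference over all entries was -0.02. The dark arrays held both the highest and the lowest value, ZT18 and ZT62.

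For miR-494, cycle 2 against cycle 1 did not pass the test. The 2 collections of a clock time are its only replicates, so the fit set their mean difference against the scatter of the 6 pair differences. At the same clock time, the later collection minus the earlier one was -0.03 log2 units for miR-494, a fold of 0.977 (95% interval 0.868 to 1.1, limma adjusted p = 0.898), and the later was higher in 2 of 6 pairs. Among the 139 entries 0 were called (0%) and 5 (3.6%) had an unadjusted p under 0.05 in limma, with a smallest adjusted p of 0.866. As a p that misses the threshold does not show equal levels, these intervals are what the 12 pools allow.

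miR-487b was called on 8 arrays at a signal near the background. Its brighter probe averaged, in intensity units, 16.7 at ZT18, 12.3 at ZT22, 10.7 at ZT26, 12.9 at ZT30, 18.4 at ZT34, 14.4 at ZT38, 15.6 at ZT42, 10.1 at ZT46, 32.0 at ZT50, 13.6 at ZT54, 18.5 at ZT58 and 20 at ZT62. The calls fell on ZT18, ZT30, ZT34, ZT38, ZT42, ZT50, ZT58 and ZT62, 4 light and 4 dark arrays. The brighter probe was above the highest mean of a negative control probe, 2.6 to 8.02, on every array. On ZT30 and ZT38 the software called it although 0 of its spots were well above background.

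After scaling, miR-487b lay at or under the floor of 22.2 units on 11 of 12 arrays, the exception being ZT50 at 33.6, so its differences are those of 1 array. Dark minus light was -0.10 log2 units (limma adjusted p = 0.74), the later minus the earlier cycle 0.10 (adjusted p = 0.866), and the fitted 24-h ratio 1.15 (adjusted p = 0.957). None of these passed, and the values have no order below the floor.

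miR-341, whose probes were called on ZT26 and ZT46, gave a similar dim signal. The probe with the higher mean over the arrays gave 7.39 at ZT18, 9.52 at ZT22, 13.3 at ZT26, 4.42 at ZT30, -3.44 at ZT34, 2.75 at ZT38, 9.21 at ZT42, 16.4 at ZT46, 11.3 at ZT50, 11.8 at ZT54, 10 at ZT58 and 7.97 at ZT62. At ZT34 it was below the range of the negative control probes (-0.659 to 2.6) and at ZT38 within it (1.62 to 3.85). The other probe was higher at ZT30, ZT34 and ZT58, and at ZT46, the highest array, both (16.4 and 13) were above the controls. Light and dark arrays overlapped, and it was not among the entries tested, which needed calls on 6 arrays.

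**Figure D5:**
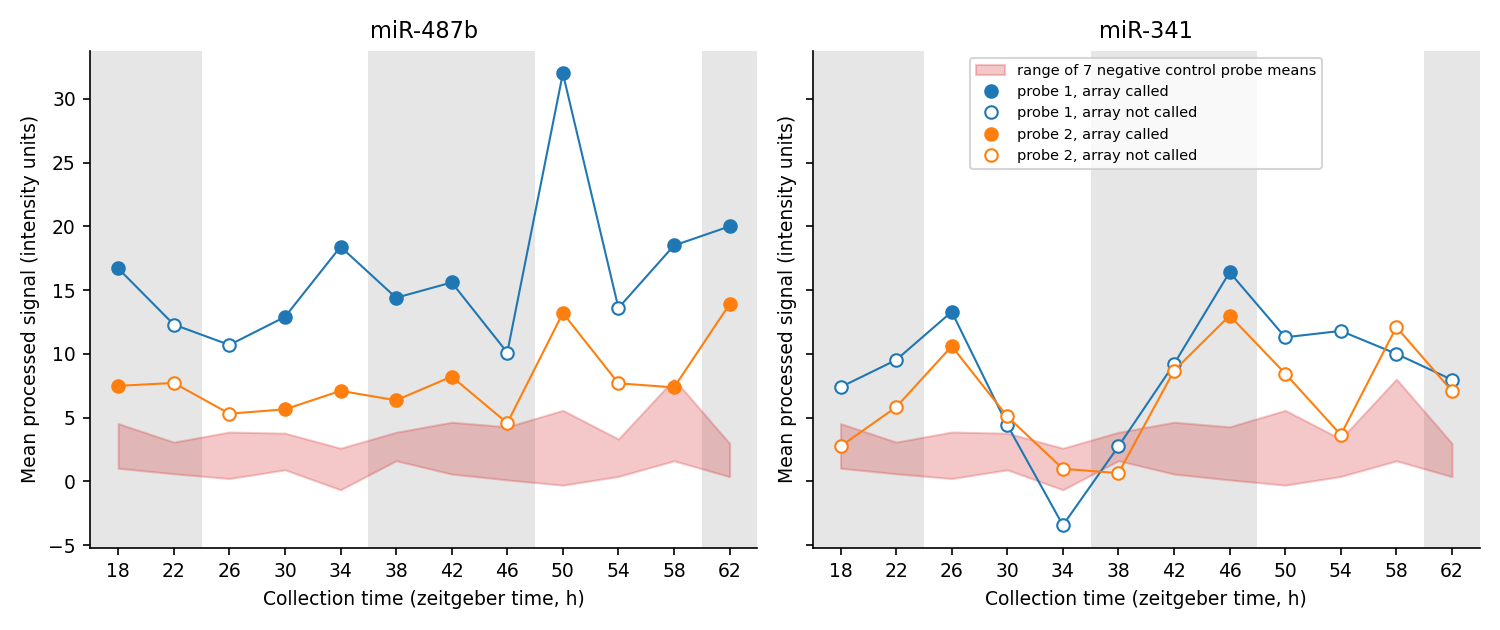
Mean signal in intensity units of both probes of miR-487b (left) and miR-341 (right) by collection time (zeitgeber time in h; grey bands are dark), with filled points where the array was called and the range of the 7 negative control probe means in pink. miR-487b stays above the pink range on all arrays for probe 1, with ZT50 at 32.0, while probe 1 of miR-341, the brighter on average, is below it at ZT34 and inside it at ZT38.

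Another rule, added after the data were seen, asked that every probe of an entry exceed the highest negative control probe mean of its array. By it 3 members passed on at least 6 arrays (4.62%), beside 25.7% of mouse entries, which is more than the software called at that number of arrays: miR-494 on 12, miR-487b on 11 and miR-341 on 9. Among entries with 2 probes, to which all 3 belong, 7.89% of members and 43.0% of mouse entries passed. Behind them came miR-329 on 5 arrays, miR-382 on 4, miR-434-3p on 2, and miR-136, miR-370, miR-376c and miR-668 on 1 each. The other 55 members passed on 0 arrays.

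The 9 members called on 1 array each had 1 to 3 of 18 to 20 spots well above background there. The calls did not follow that count alone: miR-668 was called at ZT26 with 1 such spot and not at ZT18 with 2. miR-134, known from dendritic spines of neurons, was called at ZT34, where its probes averaged 31.5, 2.81 and lower beside a highest negative control probe of 2.6, with 2 of 20 spots above background. miR-300* at ZT54 had probe means of 26.1, -4.1 and lower, with 1 of 20 spots. miR-433* at ZT42 had 24.6 and 4.25, the latter below the highest negative control probe at 4.64, with 2 of 20 spots. In these 3 members 1 probe was far above the others, and only in miR-134 did another pass the highest control, at 2.81.

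In 4 other members at least 1 further probe had a mean above the highest negative control probe mean. miR-493 at ZT50 had probe means of 37.6 and 8.07 beside a highest control of 5.57, with 3 of 20 spots, and miR-679 on the same array had 37.0 and 16.2, with 3 of 19. miR-540-5p at ZT34 had 21.5 and 10.8 beside 2.6, with 3 of 19, and miR-540-3p at ZT54 had 24.4 and 8.63 beside 3.32, with 1 of 18. The lowest probe of each of these 4 was below 0, at -2.35 to -7.84 intensity units, so probes of the same member disagreed. The spots of the second-highest probe had an SD of 19.0 for miR-493, 30.8 for miR-679, 13.1 for miR-540-5p and 3.42 for miR-540-3p. These probes had 4 or 5 spots on their array. The control probes had 464 to 2037 spots each over the 12 arrays, so their means average more spots.

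miR-668 at ZT26 had means of 12.5 and 7.18 and a lowest probe of 3.38, which is under the highest control of 3.87. Only miR-376c at ZT22 had all 4 probes above the controls, from 7.39 to 14.8 beside 3.08, with 1 of 19 spots above background. The arrays of these calls were ZT22, ZT26, ZT34, ZT42, ZT50 and ZT54, on both slides and in both light and dark.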

How the data were processed

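Total RNA of 12 liver pools was hybridised to single-colour (Cy3) Agilent miRNA arrays. The deposited values are spot intensities on a linear scale, background-subtracted in Agilent's Feature Extraction software (version 10.7.3.1 per the file headers, 9.5.3.1 per the submitters' processing notes). Control spots and outlier spots (3.82% to 6.94% of an array) were left out and spots of a probe averaged. Arrays were scaled to the 75th percentile of the 157 probes detected on all arrays. A floor of 22.2 was set and log2 taken, with the brightest probe standing for an entry. Calls are the software's own. Entries called on at least 6 arrays (139) were tested with limma 3.58.1 (R 4.3.3, Benjamini-Hochberg, threshold 0.05) for a 24-h rhythm, dark against light, and cycle 2 against cycle 1 with clock time as a factor. The tests were tried on simulated data with independent normal noise for each entry and no shared array or slide effects. That trial does not bear on such effects in these data. Saturated spots numbered 0. Precision is limited by the number of pools.

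The members, lists and tests were chosen with earlier results of these data known. All members with a call are named with their values, uncalled ones by position and lists as counts. Coordinates, sequences and host genes are those of RefSeq (GRCm38.p6), since the files carry none. Arms were assigned from the array's older names. Alternatives covered scaling, background correction, filters, probe rule, slide, left-out arrays and detection rules.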

Additional observations from a re-analysis of the deposited data

Results flagged for a closer look

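Of 12 groups of 6 arrays checked for an array far from the others, 2 held one, and for measured values chance alone marks about 1 in 20 groups. Among the light arrays, the brighter miR-487b probe was at 32 intensity units at ZT50, with the next at 18.5 and the lowest at 10.7. Among the dark arrays, 3 members were called at ZT42 and 2 on each of the others. With 5 tied counts any differing count meets the limit, so the chance rate does not apply to it.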

How the results depend on the processing

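The count of 12 members called on at least 1 array fell to 2 with calls on at least 6 arrays and to 1, miR-494, with calls on all 12. It was also 1, miR-494, where a share above 0.5 of the spots of the brightest probe had to be well above background, where every spot had to be, and where the brightest probe had to exceed the brightest herpesvirus entry. For the 24-h rhythm 0 of 139 entries were called, and the count stayed at 0 under the 25 alternatives run. For dark against light it ran from 0 to 2 over the fits without 1 array: without ZT30 limma called miR-101b and miR-1895 (adjusted p = 0.0338 each), and 0 otherwise. For cycle 2 against cycle 1 it stayed at 0 under 22 alternatives. miR-494 passed no test under any alternative run, with adjusted p from 0.805 to 1 for the rhythm, 0.301 to 1 for dark against light and 0.118 to 1 for the cycles (limma, slide 2 alone not counted). Scaling on all probes turned dark minus light of miR-494 to 0.346, as it moved the median of all entries to 0.38, and moved the median for the cycles to -0.50. Without ZT18 or without ZT42 the cycle difference of miR-494 was 0.022, and over the fits without 1 array it ran from -0.0739 to 0.022. ZT18 and ZT42 are the only arrays at 18 h, so leaving out either one removes that pair from the cycle fit. The cause of the shifts with scaling on all probes was not tested. On slide 2 alone the rhythm ratio of miR-494 was 1.37 and dark minus light -0.338, with adjusted p of 0.485 and 0.292 (limma), from 4 arrays of which only ZT62, the lowest array of all, is dark, so the lone sample is assumed to vary like the light ones. Normexp was run on the median spot signal. The labels give no replicate numbers; the cycle fit compares collections of the same clock time. With cycle as a block, added after seeing the data, dark minus light of miR-494 was -0.083 (limma adjusted p = 0.771) and 0 entries were called. The cycle fit on slide 2 could not be made, as that slide holds arrays of cycle 2 only. miR-487b gave no value where it lay at the floor on every array. Signal near background limits every member except miR-494.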
